A study of Mus musculus with 5 samples.

Results

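Type 1 conventional dendritic cells (cDC1) were examined in mouse tumours, in 5 droplet-based single-cell RNA sequencing libraries. The cells were chosen by their own UMI counts (unique molecular identifiers, which mark captured transcripts). Barcodes needed 500 UMIs or more, 250 genes or more and a mitochondrial share of no more than 10%, and such a kept cell was taken as a cDC1 when Xcr1 and Clec9a together gave at least 2 UMIs, Ccr7 and Fscn1 together at most 1, and the complement genes C1qa, C1qb and C1qc together at most 3. This rule found 128 cDC1 among 57661 kept cells. Tumour cells of the mouse lung cancer line Lewis lung carcinoma had received a guide RNA against JAG2 (JAG2KO, 2 libraries) or a Scramble guide (Scramble, 3 libraries) and were injected into the flanks of mice, and at the endpoint the tumours were dissociated with Liberase, an enzyme blend, and sorted for cells that carried CD45 and excluded propidium iodide. The guide was thus given to the tumour cells, and the cDC1 are cells of the host. The mouse strain, sex and age, the number of clones of the edited line and whether each library came from 1 animal are not given in the sources used here, so the p-values speak of the spread among these 5 libraries, which may be technical.

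cDC1 are a minor class of dendritic cell that depends on the transcription factors Irf8 and Batf3 and on the growth factor receptor Flt3. They sense dead cells through Clec9a and respond through the chemokine receptor Xcr1 to Xcl1 from T and NK cells. In tumours they are known for presenting tumour antigens on MHC class I to CD8 T cells. After activation they take on a migratory state marked by Ccr7 and Fscn1, which the rule leaves out. Jag2 encodes a ligand of Notch receptors, and Notch2 signalling is known to shape cDC2.

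JAG2KO libraries 1 and 2 held 27 and 34 cDC1 of 10272 and 19338 kept cells, and Scramble libraries 1, 2 and 3 held 22, 17 and 28 of 9502, 10328 and 8221. The median cDC1 had 6806 and 9983.5 UMIs in the JAG2KO libraries, against 10152.5, 8632 and 11996 UMIs in the Scramble libraries. Over all cells the deposited counts summed to 111680641 and 88782432 UMIs in the JAG2KO libraries, against 93688591, 103246847 and 84788907 UMIs in the Scramble libraries. JAG2KO 2 stood apart, with a median of 2422 UMIs per kept cell, against 8965 in JAG2KO 1 and 8064.5 to 8187.5 in the Scramble libraries. Between libraries 474 barcode pairs were shared, and no barcode was a cDC1 in both libraries of a pair. Because the cDC1 of a library sum to between 149413 and 353236 UMIs, a gene at 20 CPM (a gene's UMIs scaled to the UMI total of those cells) rests on a handful of UMIs.

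Jag2, the gene targeted in the tumour cells, was counted first. The cDC1 of the JAG2KO libraries held 4 and 5 Jag2 UMIs (17.8 and 14.5 CPM, exact Poisson 95% intervals 4.86 to 45.7 and 4.69 to 33.7), against 4, 1 and 12 UMIs in the Scramble libraries (18.2, 6.69 and 34.0 CPM, intervals 4.97 to 46.7, 0.169 to 37.3 and 17.6 to 59.3). The values overlapped between groups. Over all kept cells Jag2 stood at 3.71 and 2.25 CPM in the JAG2KO libraries, against 3.95, 3.22 and 4.52 CPM in the Scramble libraries. The sort was for CD45-positive cells and the guide was given to the tumour cells, so these values are no check of the guide.

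The label was compared with the cells' genes. The values in this paragraph are descriptions with no test, since the rule chose the cells. Xcr1 was detected in 111 of the 128 cells and Clec9a in 106, and 89 cells had both, 22 only Xcr1 and 17 only Clec9a. Among genes outside the rule, Flt3 was detected in 104 cells, Batf3 in 86, Irf8 in 125, Itgae (the integrin CD103) in 87 and Snx22 (a sorting nexin, a family of membrane trafficking proteins) in 56. Irf8 averaged 2207 ± 247 CPM in cDC1 (SD, n = 5 libraries), against 170.5 ± 64.8 CPM in type 2 dendritic cells (cDC2, set by at least 2 UMIs of the lectin Cd209a) and 1096 CPM in migratory dendritic cells (set by Fscn1 and Ccr7). The double-stranded RNA sensor Tlr3 averaged 226 CPM in cDC1, 5.04 CPM in cDC2 and 11.9 CPM in macrophages. Wdfy4, which cDC1 need for cross-presentation, averaged 702 CPM in cDC1, 166 CPM in cDC2 and 26.7 CPM in migratory dendritic cells. The lysosomal amidase Naaa averaged 1287 CPM in cDC1, 244 CPM in cDC2 and 27.5 CPM in migratory cells, and the adhesion molecule Cadm1 averaged 106 CPM in cDC1 and 5.22 CPM in cDC2. Genes were also ordered by their fold over the other kept cells, with 1 CPM added to both levels and the smallest fold of the 5 libraries taken, an order that depends on the added value. The first 10 were Sept3, Gm43914, Plet1, Btla, Itgae, Flt3, Mycl, Gcsam, Ffar4 and Asb2. Sept3, a septin, stood at 232 and 486 CPM in JAG2KO cDC1 and at 378, 274 and 328 CPM in Scramble cDC1, against 1.43 to 2.80 CPM in the other kept cells of the same libraries. The lymphocyte inhibitory receptor Btla stood at 111 and 147 CPM in JAG2KO cDC1, against 210, 187 and 201 CPM in Scramble cDC1. Flt3 and Batf3 do not set cDC1 apart from migratory cells, with means of 200 and 156 CPM in cDC1, against 242 and 172 CPM in migratory cells and 62.7 and 36.3 CPM in cDC2. Itgae, Tlr3, Naaa and Wdfy4 were higher in cDC1 than in both, and these genes go with the label. Other genes did not follow them. Nfil3 averaged 31.9 CPM in cDC1, against 74.4 CPM in cDC2 and 121 CPM in migratory cells. Zbtb46 averaged 63.7 CPM in cDC1, against 41.8 CPM in cDC2 and 108 CPM in migratory cells. Cd8a was low, at 6.41 CPM in cDC1 and 13.6 CPM in migratory cells.

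**Figure D1:**
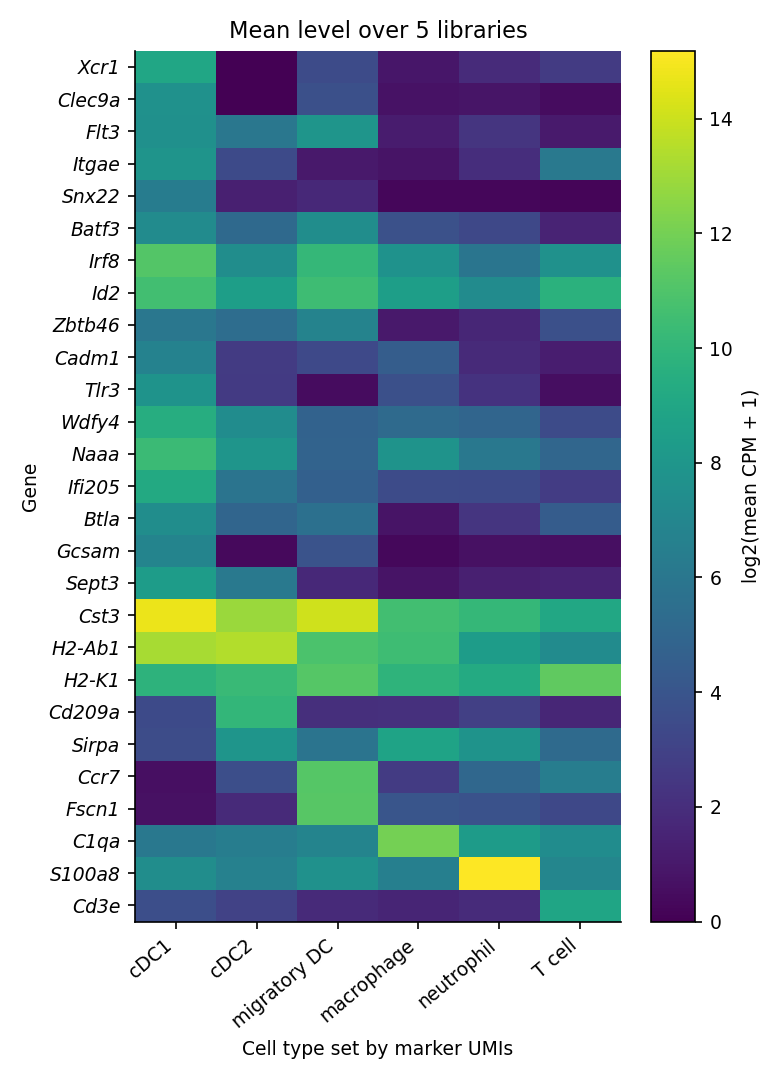
Mean level of 27 genes (rows) in 6 cell types set by marker UMIs (columns) over the 5 libraries, as the log2 of mean CPM plus 1. The cDC1 column is bright for Xcr1, Clec9a, Itgae, Snx22, Tlr3 and Naaa and dark for the cDC2 gene Cd209a (9.81 CPM against 1049 CPM in cDC2) and the migratory genes Ccr7 and Fscn1, which the rule excluded.

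Genes of other cell types were also found. The summed macrophage markers stood at 464 and 211 CPM in JAG2KO cDC1, against 465, 709 and 402 CPM in Scramble cDC1. This list holds C1qa, C1qb and C1qc, which the rule itself limits, and 93 of 128 cells had at least 3 of its UMIs. The summed monocyte markers (Ly6c2, Ccr2, Chil3, Plac8, Vcan) stood at 1204 and 723 CPM in JAG2KO cDC1, against 821, 730 and 900 CPM in Scramble cDC1. At least 3 monocyte marker UMIs were found in 87 of 128 cells. The B cell markers Cd79a, Cd79b and Ms4a1 were at 0, as were 3 of the 5 NK cell markers. The summed T cell markers (Cd3d, Cd3e, Cd3g, Trac, Trbc2) stood at 143 and 133 CPM in JAG2KO cDC1, against 18.2, 13.4 and 2.83 CPM in Scramble cDC1, and 3 cells, all of JAG2KO libraries, had at least 3 of these UMIs. The summed plasmacytoid dendritic cell markers (Siglech, Ccr9, Klk1, Tcf4, Cox6a2) stood at 709 and 197 CPM in JAG2KO cDC1, against 41.0, 73.6 and 416 CPM in Scramble cDC1, and Siglech was detected in 15 of 128 cells. The summed cDC2 markers stood at 165 and 153 CPM in JAG2KO cDC1, against 82.1, 93.7 and 19.8 CPM in Scramble cDC1. Neutrophil markers stood at 13.4 and 17.3 CPM in JAG2KO cDC1, against 2248, 73.6 and 73.6 CPM in Scramble cDC1, and 1 cell of Scramble 1 and 3 cells of Scramble 3 had at least 3 of these UMIs. Results are given below also without cells holding a Cd3, Cd79a or Ms4a1 UMI or at least 3 UMIs of S100a8 and S100a9. Without cells holding a Siglech UMI, 4 genes were called, 3 of them among the 6 named below, and Snx22 had a log2 change of -1.75 ± 0.35 (edgeR adjusted p = 0.088).

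The C1q limit of the rule was examined next. Complement C1q is a macrophage product. T cells, which do not make it, had a median of 3 and 1 C1q UMIs in the JAG2KO libraries, against 3, 4 and 2 in the Scramble libraries, and over 3 C1q UMIs were found in 35.0% and 23.6% of JAG2KO T cells, against 31.9%, 56.7% and 29.6% of Scramble T cells. Of the cells that met the other parts of the rule, those with 4 to 10 C1q UMIs numbered 25 and 1 in the JAG2KO libraries, against 17, 30 and 19 in the Scramble libraries. Between 11 and 15 C1q UMIs lay 3 cells in all, and 60 cells had 16 or more. Flt3 was detected in 80.4% of the 92 cells just outside the limit with 4 to 10 UMIs, in 84.9% of the 106 cells just inside it with 1 to 3 UMIs, in 63.6% of the 22 cells with none and in 46.7% of the 60 cells with 16 or more. The limit of 3 removed 1 of 35 cells of JAG2KO 2 but 30 of 47 cells of Scramble 2. The shares, the gene test in cDC1 and the cell cycle shares are therefore also given with a limit of 10 C1q UMIs. That value was chosen after these counts were seen. The tests of cDC1 changes against those in other dendritic cells were not run at that limit.

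**Figure D2:**
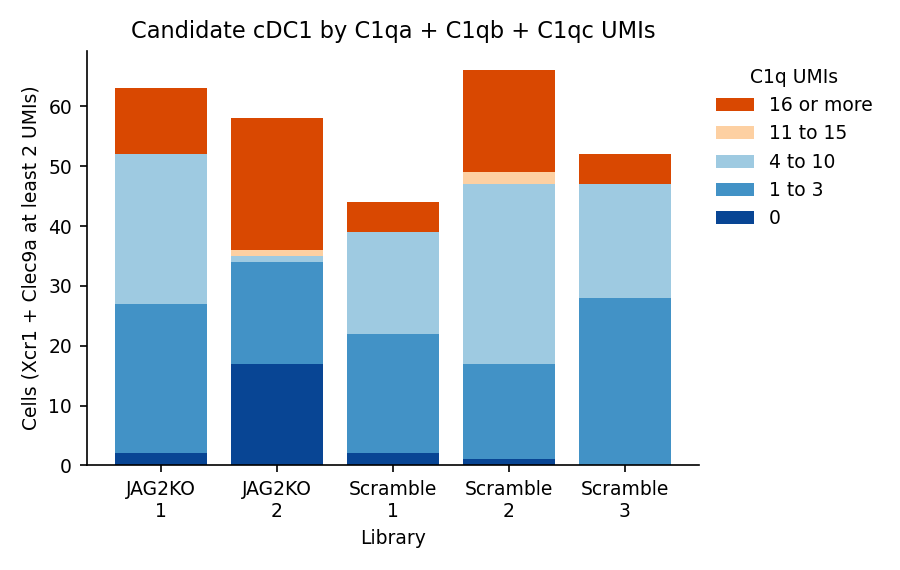
Number of cells with at least 2 UMIs of Xcr1 and Clec9a (vertical axis) in each library, stacked by their C1qa, C1qb and C1qc UMIs. The band of 4 to 10 UMIs, just above the limit, holds 25 and 1 cells in JAG2KO 1 and 2, against 17, 30 and 19 cells in Scramble 1, 2 and 3.

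The other edge of the rule was the 2 UMIs of Xcr1 and Clec9a. The 25 cells with exactly 2 had Flt3 in 60.0%, Itgae in 32.0% and Batf3 in 52.0%, and the 92 cells with 1, just outside, had them in 35.9%, 10.9% and 15.2%. Of the 103 cells with 3 or more, 86.4% had Flt3, 76.7% Itgae and 70.9% Batf3. Cells with exactly 2 made up 12 of 27 and 5 of 34 cDC1 in the JAG2KO libraries, against 2 of 22, 3 of 17 and 3 of 28 in the Scramble libraries.

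The first comparison asked whether tumours of JAG2KO cells held more or fewer cDC1. cDC1 made up 0.263% and 0.176% of kept cells in the JAG2KO libraries (exact Clopper-Pearson 95% intervals 0.173 to 0.382% and 0.122 to 0.246%), against 0.232%, 0.165% and 0.341% in the Scramble libraries (0.145 to 0.35%, 0.0959 to 0.263% and 0.226 to 0.492%). These intervals cover counting error only. The groups overlapped, with means of 0.219 ± 0.0615% in JAG2KO (SD, n = 2) and 0.246 ± 0.0888% in Scramble (SD, n = 3), a ratio of 0.893 (two-sided exact permutation p = 0.9, where 0.1 is the smallest that 10 splits can give). Under the limit of 10 C1q UMIs the shares were 0.506% and 0.181% in JAG2KO, against 0.410%, 0.455% and 0.572% in Scramble, a ratio of 0.717 (exact permutation p = 0.5). The share in JAG2KO 2 was below every Scramble library at the wider limit, and JAG2KO 1 was among them.

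The other dendritic cells gave a further denominator. Per 100 dendritic cells (cDC1, cDC2 and migratory dendritic cells) there were 13.1 and 18.8 cDC1 in the JAG2KO libraries, against 25.9, 37.0 and 29.8 in the Scramble libraries. The groups did not overlap, with means of 15.9 ± 4.01 in JAG2KO (SD, n = 2) and 30.9 ± 5.62 in Scramble (SD, n = 3), a ratio of 0.516 at the smallest p the design allows (two-sided exact permutation p = 0.1). The direction turned when no C1q UMI was allowed, with 1.10 and 10.4 per 100 in JAG2KO, from 2 and 17 cells, against 3.08, 3.33 and 0 in Scramble, from 2, 1 and 0 cells (ratio 2.68, exact permutation p = 0.4). Raising the C1q limit to 10 gave 22.5 and 19.2 for JAG2KO, against 38.2, 61.8 and 41.6 in Scramble, a ratio of 0.442 (exact permutation p = 0.1). Both changes of limit applied to cDC1 only. The cDC2 and migratory cells kept a limit of 3 C1q UMIs, so these 2 ratios set cells under unlike limits against each other. The denominator moved with the group: migratory dendritic cells made up 0.876% and 0.486% of kept cells in JAG2KO, against 0.253%, 0.0968% and 0.255% in Scramble, while cDC2 made up 0.866% and 0.274% in JAG2KO, against 0.410%, 0.184% and 0.547% in Scramble. When migratory cells were left out of the denominator the groups overlapped, at 23.3 and 39.1 cDC1 per 100 for the JAG2KO libraries, against 36.1, 47.2 and 38.4 for the Scramble libraries (ratio 0.769, exact permutation p = 0.5). Shares of a sorted sample cannot tell fewer cDC1 from more of other cells.

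**Figure D3:**
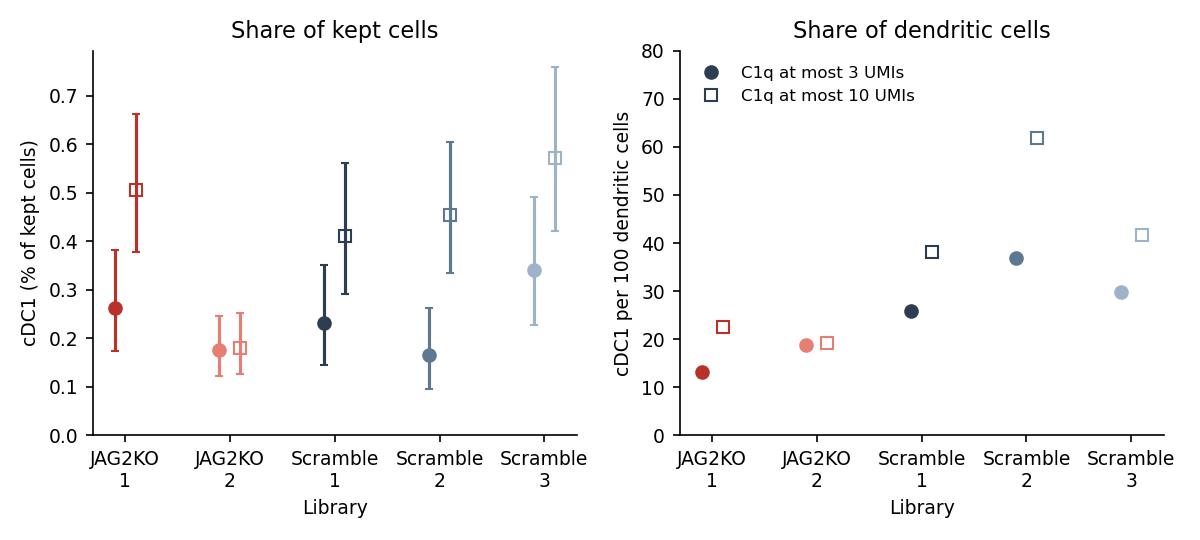
cDC1 as a percentage of kept cells with exact 95% binomial intervals (left) and per 100 dendritic cells (right), by library, with a C1q limit of 3 UMIs (filled circles) and of 10 UMIs (open squares). The limit of 10 was set for cDC1 only, and the other dendritic cells kept a limit of 3. On the right both JAG2KO libraries, at 13.1 and 18.8 with the limit of 3, lie below the 3 Scramble libraries, at 25.9 to 37.0, and on the left the groups overlap.

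The second comparison asked which genes differed in cDC1 between JAG2KO and Scramble tumours. UMIs were summed over the cDC1 of each library and tested by edgeR's quasi-likelihood method, with adjusted p-values (Benjamini-Hochberg) over 3592 genes and a threshold of 0.05. In all 6 genes were called (0.167% of those tested): in JAG2KO cDC1 5 rose (0.139%) and 1 fell (0.0278%), and 264 had an unadjusted p below 0.05. The chemokine Cxcl9, the calcium-binding proteins S100a4 and S100a10, the activation and tissue retention marker Cd69 and the interferon-inducible GTPase Iigp1 rose, and Snx22 fell. In all 6 the 2 JAG2KO libraries lay on one side of the 3 Scramble libraries, as did 13.3% of all tested genes above and 9.02% below. The filter on low counts asks for enough UMIs in 2 libraries, whichever their group. Cd69 and Iigp1 met it only through the JAG2KO libraries, and Snx22 only through the Scramble libraries.

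Snx22, the gene that fell, was spread over many cells. It stood at 35.7 and 34.7 CPM in JAG2KO cDC1 (8 and 12 UMIs), against 123, 107 and 110 CPM in Scramble cDC1 (27, 16 and 39 UMIs). It was detected in 6 of 27 and 8 of 34 cells of the JAG2KO libraries, against 15 of 22, 10 of 17 and 17 of 28 cells of the Scramble libraries, and no cell held more than 6 of its UMIs. The log2 change was -1.73 ± 0.33 (SE, edgeR adjusted p = 0.032). Snx22 passed the filter on low counts only through the Scramble libraries, where it is high. Among cells with 3 or more UMIs of Xcr1 and Clec9a, Snx22 was detected in 26.7% and 27.6% in JAG2KO, against 70.0%, 57.1% and 60.0% in Scramble. When each cell was thinned to 2000 UMIs it was detected in 3 of 26 and 1 of 33 cells in JAG2KO, against 4 of 22, 3 of 17 and 7 of 28 in Scramble, and in at most 0.0793% of macrophages. With up to 10 C1q UMIs the log2 change was -1.13 ± 0.25 and no longer called (edgeR adjusted p = 0.11), and over 20 alternatives it stayed negative, from -1.96 to -1.13, with a call in 10 and adjusted p from 0.0022 to 0.80. Snx22 is among the genes that marked the cells for this work, though not part of the rule.

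Cxcl9 draws CXCR3-bearing T cells and is induced by interferon gamma. It stood at 227 and 445 CPM in JAG2KO cDC1 (51 and 154 UMIs), against 68.4, 87.0 and 48.1 CPM in Scramble cDC1 (15, 13 and 17 UMIs), a log2 change of 2.37 ± 0.33 (SE, edgeR adjusted p = 0.0026). The shares of cells with a UMI overlapped: 8 of 27 and 8 of 34 in JAG2KO, against 7 of 22, 4 of 17 and 4 of 28 in Scramble. A single cell held 109 of the 154 UMIs of JAG2KO 2, and another 20 of the 51 UMIs of JAG2KO 1. In a further setting the highest cell of each gene was left out in every library, and CPM was taken over the UMIs that remained. Cxcl9 then stood at 168 and 148 CPM in JAG2KO, against 59.4, 33.9 and 32.7 CPM in Scramble (log2 change 1.85 ± 0.34, edgeR adjusted p = 0.018). The call did not hold with up to 10 C1q UMIs (0.32 ± 0.48, adjusted p = 0.97), and the direction turned when a UMI of both Xcr1 and Clec9a was asked (-0.44 ± 0.45, adjusted p = 0.92). Without Scramble 1 or Scramble 3 it was not called either (edgeR adjusted p = 0.080 and 0.23), and over 20 alternatives the adjusted p ran from 8.7e-12 to 0.97.

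The 250 bases before the start of each of these genes are shown, since Cxcl9 had the smallest p of those that rose and Snx22 was the gene that fell. The sequences are those of RefSeq on GRCm38.p6, on the minus strand, at chr5:92328080-92328329 for Cxcl9 and at chr9:66069760-66070009 for Snx22, which has 2 starts in the table, of which the outer was used. Both strands were searched for the interferon-stimulated response element (GAAA, 2 free bases, GAAA), TTCNNNGAA (the gamma-activated site), TGANTCA (AP-1) and GGGNNTTCC (NF-kB), and matches stand in capitals.
Cxcl9: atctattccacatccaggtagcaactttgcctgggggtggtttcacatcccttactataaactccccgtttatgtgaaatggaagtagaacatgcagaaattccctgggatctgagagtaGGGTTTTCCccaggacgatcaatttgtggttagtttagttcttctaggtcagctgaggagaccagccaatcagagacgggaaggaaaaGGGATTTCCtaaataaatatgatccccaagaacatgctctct
Snx22: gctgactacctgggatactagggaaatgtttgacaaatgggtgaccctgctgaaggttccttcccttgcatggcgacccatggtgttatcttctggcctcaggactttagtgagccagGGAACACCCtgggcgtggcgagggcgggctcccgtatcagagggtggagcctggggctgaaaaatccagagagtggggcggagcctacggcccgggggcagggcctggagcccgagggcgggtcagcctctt
Cxcl9 held 2 matches of GGGNNTTCC and Snx22 held 1 on the other strand, and neither held a match of the other 3 motifs. GGGNNTTCC was found in 4.98% of 32851 windows of this length, TTCNNNGAA in 7.02%, TGANTCA in 6.75% and the interferon-stimulated response element in 2.98%. A match, or the lack of one, describes the letters of the window under these exact patterns and nothing of binding.

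S100a10 stood at 589 and 422 CPM in JAG2KO cDC1, against 223, 100 and 198 CPM in Scramble cDC1, a log2 change of 1.42 ± 0.26 (SE, edgeR adjusted p = 0.029), and it was detected in 23 of 27 and 27 of 34 cells in JAG2KO, against 17 of 22, 8 of 17 and 23 of 28 in Scramble. S100a4 stood at 303 and 315 CPM in JAG2KO cDC1, against 105, 141 and 82.1 CPM in Scramble cDC1, a log2 change of 1.51 ± 0.26 (SE, edgeR adjusted p = 0.022). Its detection overlapped between groups, at 21 of 27 and 15 of 34 cells in JAG2KO, against 8 of 22, 9 of 17 and 14 of 28 in Scramble, and 1 cell held 41 of the 109 UMIs of JAG2KO 2. Both were also called with up to 10 C1q UMIs, S100a10 at 1.30 ± 0.20 (edgeR adjusted p = 0.0096) and S100a4 at 2.11 ± 0.27 (adjusted p = 0.0032), and with the highest cell left out. Over 20 and 19 alternatives the adjusted p ran from 5.1e-05 to 0.25 for S100a10 and from 9.4e-05 to 0.40 for S100a4. S100a10 was called in 11 of the 20 and S100a4 in 12 of the 19. Neither was called with at least 3 UMIs of Xcr1 and Clec9a or with a UMI of each. The calls were also lost with sums thinned to the smallest library, without Scramble 1 and without Scramble 3. Both S100 genes are higher in other cells of the same tumours. S100a4 had a mean of 3117 CPM in cDC2 against 189 CPM in cDC1, and S100a10 1441 CPM in T cells against 307 CPM in cDC1. The summed cDC2 and T cell markers given above were also higher in JAG2KO cDC1. With cells holding T, B or neutrophil UMIs left out, which kept 23 and 31 cDC1 in JAG2KO and 19, 16 and 25 in Scramble, the changes were 1.46 ± 0.30 for S100a4 (edgeR adjusted p = 0.063) and 1.23 ± 0.27 for S100a10 (adjusted p = 0.079). The part of cDC2 RNA was not tested.

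Cd69 and Iigp1 rested on very few cells, and both passed the filter on low counts only through the JAG2KO libraries, where they are high. Cd69 stood at 129 and 52.0 CPM in JAG2KO cDC1, from 6 and 4 cells, against 9.12, 6.69 and 5.66 CPM in Scramble cDC1, from 1 cell in each library (log2 change 3.49 ± 0.62, edgeR adjusted p = 0.022). It averaged 205 CPM in T cells, whose markers were higher in JAG2KO cDC1, and it did not pass the filter on low counts once cells with T, B or neutrophil UMIs were left out. Iigp1 stood at 169 and 80.9 CPM in JAG2KO cDC1, against 0, 40.2 and 0 CPM in Scramble cDC1 (log2 change 3.68 ± 0.70, edgeR adjusted p = 0.032). A single cell held 29 of the 38 UMIs in JAG2KO 1 and another held all 28 in JAG2KO 2. With up to 10 C1q UMIs the log2 changes were 0.25 for Cd69 and 0.81 for Iigp1 (edgeR adjusted p = 0.98 and 0.58, over alternatives from 3.2e-07 to 0.98 and from 1.2e-10 to 0.9999).

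**Figure D4:**
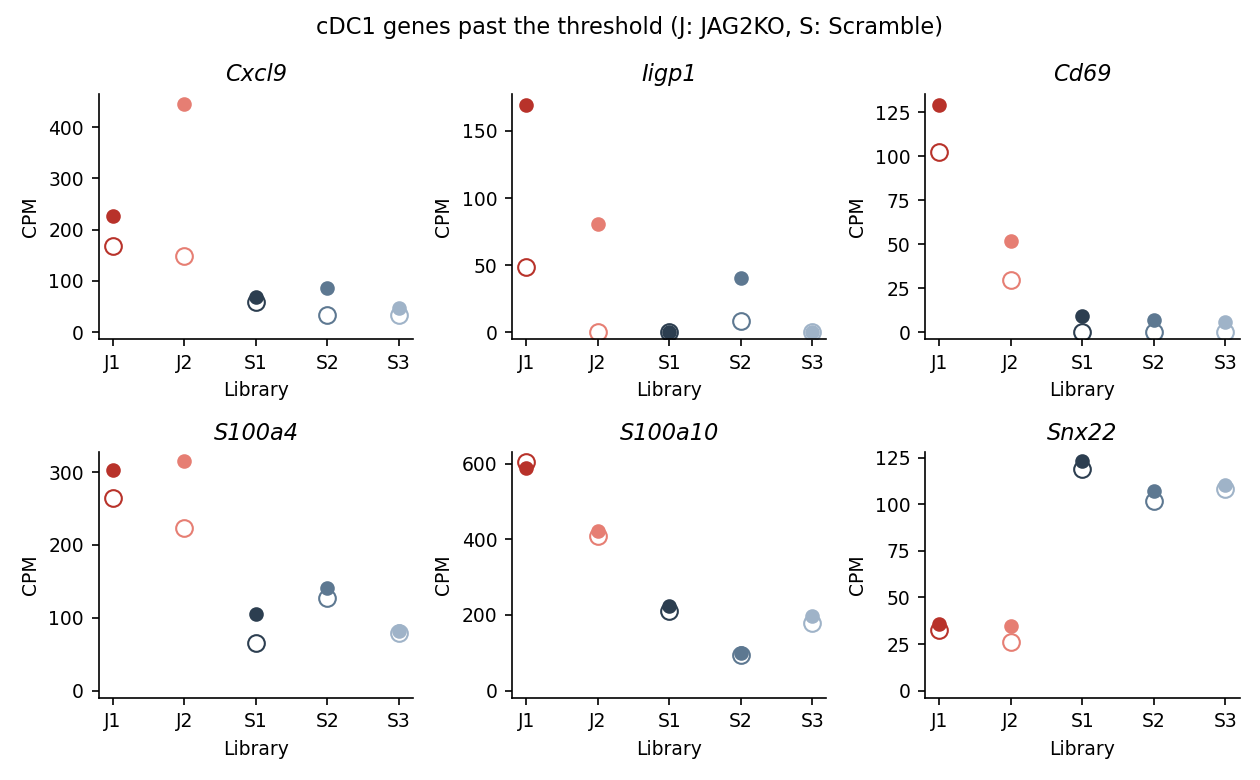
CPM of the 6 genes past the threshold in the cDC1 of JAG2KO 1 and 2 (J1, J2) and Scramble 1 to 3 (S1 to S3), over all cDC1 (filled circles) and with the highest cell of the gene left out of each library (open circles). That cell was left out for every gene, and the open circles are scaled to the smaller UMI total that remained, so the circles have unlike denominators. On each scale the groups stay apart for Snx22 and S100a10, while Cxcl9 in J2 is at 148 CPM and Iigp1 in J2 at 0 without that cell.

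Among genes just short of the threshold, Ifitm3, an interferon-induced membrane protein, stood at 776 and 618 CPM in JAG2KO cDC1, against 1354, 1633 and 1096 CPM in Scramble cDC1 (log2 change -1.02 ± 0.22, edgeR adjusted p = 0.068), and Mcm3, a subunit of the replicative helicase, stood at 120 and 80.9 CPM in JAG2KO, against 31.9, 20.1 and 25.5 CPM in Scramble (1.83 ± 0.39, adjusted p = 0.068). Under the limit of 10 C1q UMIs, 6 of 5902 genes were called (0.102%): S100a4, S100a10, Mgl2, Ly6d and Ms4a4b rose and Plac8 fell, and 2 of the 6 were also called with the limit of 3. Leaving out Scramble 1 left no gene called, while 299 had an unadjusted p below 0.05.

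The gene lists below were read by counts and medians over the genes that passed the filter on low counts, beside a median log2 change of -0.02 over all 3592 genes, and sums are over all genes of a list. A gene that passed through a single group was high there, so these counts and medians depend in part on the filter. Of the cDC1 identity list 21 genes were tested. None rose and 1, Snx22, fell, as did 0.0278% of all tested genes. The median was -0.32, and 8 had both JAG2KO libraries below all Scramble libraries, as did 9.02% of all tested genes. The summed list stood at 8602 and 10026 CPM in JAG2KO, against 10675, 11552 and 10803 CPM in Scramble. Irf8, the factor that sets cDC1 fate, stood at 2016 and 1916 CPM in JAG2KO, against 2198, 2436 and 2471 CPM in Scramble, and its partner Batf3 at 143 and 142 CPM in JAG2KO, against 169, 167 and 161 CPM in Scramble. Neither passed the test (log2 change -0.33 ± 0.19 and -0.27 ± 0.25, edgeR adjusted p = 0.76 and 0.93). Flt3 stood at 201 and 142 CPM in JAG2KO, against 182, 248 and 226 CPM in Scramble (-0.43 ± 0.25, adjusted p = 0.76), and Tlr3 at 138 and 202 CPM in JAG2KO, against 264, 261 and 263 CPM in Scramble (-0.65 ± 0.25, adjusted p = 0.51). Itgae, Naaa and Wdfy4 had log2 changes of -0.48, -0.21 and -0.20, none called. Xcr1 and Clec9a, which the rule used, stood at 361 and 578 and at 232 and 147 CPM in JAG2KO cDC1, against 483, 582 and 535 and 246, 207 and 173 CPM in Scramble cDC1.

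Antigen presentation genes gave no call. Of the MHC class II list 13 genes were tested, with a median log2 change of -0.36; all 13 log2 changes were negative and 5 genes had both JAG2KO libraries below all Scramble libraries (9.02% of all tested genes). Their sum was 28438 and 34663 CPM in JAG2KO, against 39978, 41174 and 35189 CPM in Scramble. Ciita, the switch of MHC class II transcription, stood at 196 and 246 CPM in JAG2KO, against 296, 361 and 326 CPM in Scramble (-0.60 ± 0.23, edgeR adjusted p = 0.51). With up to 10 C1q UMIs the list median was -0.26. Of the MHC class I and cross-presentation list 24 genes were tested, with a median of -0.18, and H2-K1 stood at 936 and 899 CPM in JAG2KO, against 880.1, 1091 and 742 CPM in Scramble (-0.03 ± 0.21, adjusted p = 0.99).

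The interferon genes were read as 2 lists, and the difference between them was not tested. Of the interferon gamma list 7 genes were tested and 2, Cxcl9 and Iigp1, rose, as did 0.139% of all tested genes. Iigp1 rested mostly on single cells and passed the filter on low counts only through the JAG2KO libraries. The list median was 0.42 and became -0.32 with up to 10 C1q UMIs. Cxcl10, a second CXCR3 ligand, held 17.8 and 23.1 CPM in JAG2KO, against 18.2, 26.8 and 8.49 CPM in Scramble, and did not pass the filter. Of the type I interferon list 11 genes were tested; none was called, the median was -0.60 and 5 had both JAG2KO libraries below all Scramble libraries (9.02% of all tested genes). Isg15, a ubiquitin-like modifier, stood at 26.8 and 14.5 CPM in JAG2KO, against 59.3, 174 and 59.5 CPM in Scramble (-2.20 ± 0.55, edgeR adjusted p = 0.14). It passed the filter on low counts only through the Scramble libraries. The median was -0.75 with up to 10 C1q UMIs, and no gene of either list was then called.

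Cell cycle genes were the list with the highest median. Of 22 tested none was called, 21 log2 changes were positive, the median was 0.86, and 12 genes had both JAG2KO libraries above all Scramble libraries (13.3% of all tested genes). Some of the 22, among them Mcm3, Mcm4 and Mcm5, passed the filter on low counts only through the JAG2KO libraries. Their positive changes depend in part on that filter. The 30 genes together stood at 5579 and 3511 CPM in JAG2KO, against 1619, 2691 and 2766 CPM in Scramble. With up to 10 C1q UMIs the sum was 5131 and 3380 CPM in JAG2KO, against 2302, 3397 and 3332 CPM in Scramble, so that the groups overlapped, and the median was 0.57. Top2a, a topoisomerase of dividing cells, stood at 602 and 254 CPM in JAG2KO, against 132, 187 and 193 CPM in Scramble (1.22 ± 0.29, edgeR adjusted p = 0.11). With the highest cell of each gene left out, 10 of 2826 genes were called, among them Top2a (1.92 ± 0.36, adjusted p = 0.018), Stmn1 (1.79 ± 0.39, adjusted p = 0.039), Pclaf (2.05 ± 0.44, adjusted p = 0.034) and the nucleotide enzyme Dut (1.98 ± 0.40, adjusted p = 0.027), which rose. That setting was added after seeing the data and takes away a larger part of libraries with fewer cDC1. When cells were thinned to 1000 UMIs, at least 2 cell cycle UMIs were found in 12 of 26 and 13 of 34 cDC1 in JAG2KO, against 3 of 22, 4 of 17 and 7 of 28 in Scramble, or 42.2 ± 5.60% in JAG2KO (SD, n = 2) and 20.7 ± 6.18% in Scramble (SD, n = 3). One JAG2KO 1 cell with fewer UMIs was left out. The groups did not overlap (ratio 2.04, two-sided exact permutation p = 0.1, the smallest possible). The ratio was 1.24 when cells were thinned to 2000 UMIs. Under the limit of 10 C1q UMIs the shares overlapped, at 49.0% and 31.4% in JAG2KO, against 23.1%, 27.7% and 34.0% in Scramble (ratio 1.42, exact permutation p = 0.3). Unthinned, the shares were 85.2% and 76.5% in JAG2KO, against 86.4%, 82.4% and 89.3% in Scramble.

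**Figure D5:**
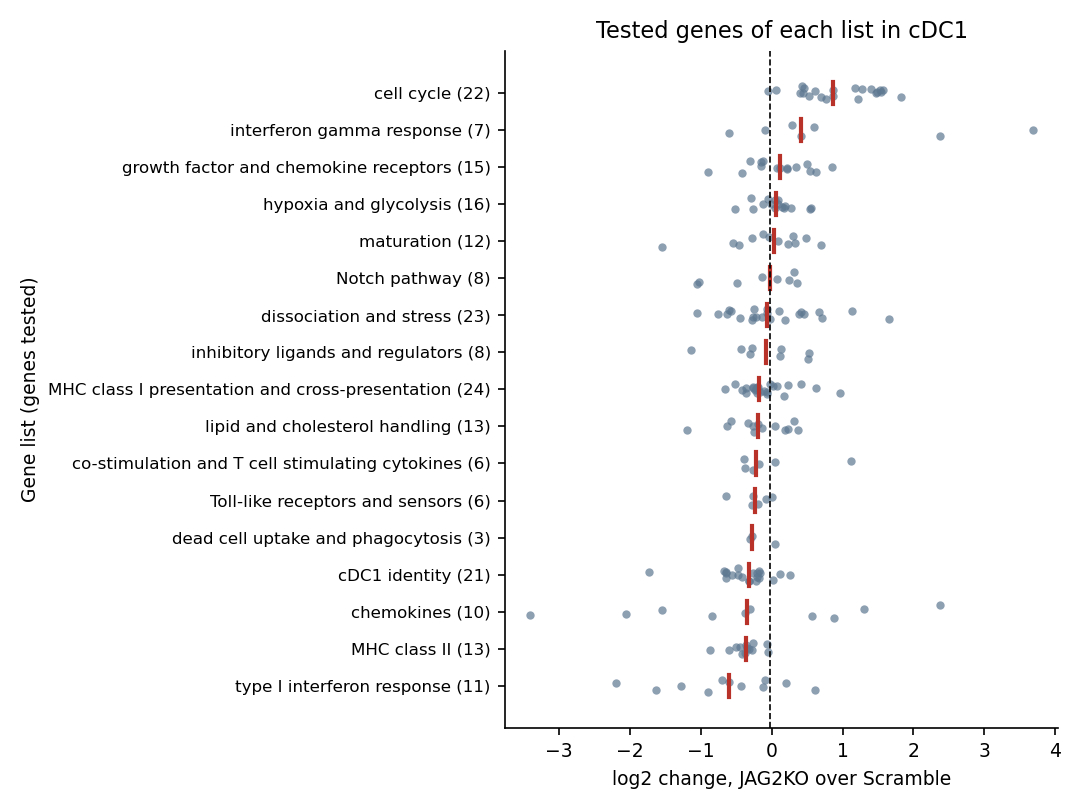
Log2 change, JAG2KO over Scramble, of each tested gene (points) of 17 lists (rows, with the number tested), with the list median in red and the median of all genes as a dashed line at -0.02. The cell cycle list lies furthest right with a median of 0.86, and the type I interferon list furthest left with a median of -0.60.

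Chemokines had 10 genes tested, of which Cxcl9 rose (0.139% of all tested genes rose), with a median of -0.34. Ccl4 stood at 1324 and 280 CPM in JAG2KO, against 205, 455 and 266 CPM in Scramble, and Ccl17 at 98.1 and 168 CPM in JAG2KO, against 1108, 522 and 56.6 CPM in Scramble. Ccl17 was carried by single cells, with 109 of 243 UMIs in 1 cell of Scramble 1 and 77 of 78 in 1 cell of Scramble 2. Il12b, the cytokine subunit through which cDC1 stimulate T cells, stood at 44.6 and 46.2 CPM in JAG2KO, against 59.3, 0 and 2.83 CPM in Scramble (1.12 ± 0.81, edgeR adjusted p = 0.86), and it was detected in 8 of 128 cells. In the list of co-stimulation and cytokines 6 genes were tested and none was called (median -0.22), and Cd86, a ligand of CD28, had a log2 change of -0.17. Cd40, Cd80 and Cd274 (PD-L1) did not pass the filter. Of the maturation list 12 were tested, with a median of 0.03, and Cd83 stood at 392.4 and 306 CPM in JAG2KO, against 287, 174 and 241 CPM in Scramble (0.49 ± 0.24, adjusted p = 0.68).

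The Notch pathway was of interest because the guide targets a Notch ligand in the tumour cells. Of 38 genes 8 were tested and none was called, with a median of -0.03. Notch2 stood at 89.2 and 72.3 CPM in JAG2KO, against 82.1, 46.9 and 51.0 CPM in Scramble (0.36 ± 0.34, edgeR adjusted p = 0.93), and Rbpj, the DNA-binding partner of Notch, at 339 and 407 CPM in JAG2KO, against 424, 415 and 360 CPM in Scramble (-0.13 ± 0.22, adjusted p = 0.96). Notch1 and Notch4 averaged 12.1 and 9.20 CPM over the 5 libraries and did not pass the filter, and Dll1 was at 0.

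No gene was called in the other lists. Growth factor and chemokine receptors had 15 genes tested (median 0.11), among them Ccr2, the receptor for monocyte-attracting chemokines, at 352 and 497 CPM in JAG2KO, against 264, 281 and 260 CPM in Scramble (0.63 ± 0.23, edgeR adjusted p = 0.47). Hypoxia and glycolysis had 16 tested (median 0.06), lipid and cholesterol handling 13 (median -0.20), inhibitory ligands and regulators 8 (median -0.08), Toll-like receptors and sensors 6 (median -0.23), dead cell uptake 3 (median -0.28), and dissociation and stress 23 (median -0.07). Hspa1a, a heat shock gene, stood at 486 and 838 CPM in JAG2KO, against 853, 1057 and 1113 CPM in Scramble (-0.63 ± 0.24, adjusted p = 0.49).

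The change in cDC1 was set against the change in the other dendritic cells of the same libraries by an interaction test in edgeR. Scramble 2 was left out, since it had fewer than 20 cells of a type, which left 2 libraries a group. The change differed from that in cDC2 for 4 of 5358 genes (0.0747%) and from that in migratory cells for 4 of 4841 (0.0826%). S100a4 was among the first 4: it stood at 303 and 315 CPM in JAG2KO cDC1, against 105 and 82.1 CPM in Scramble 1 and 3, while in cDC2 it stood at 3738 and 3283 CPM in JAG2KO, against 2971 and 3101 CPM in Scramble (difference of log2 changes 1.45 ± 0.25, edgeR adjusted p = 0.038). This was the 1 higher call against cDC2, and it was lost with all 5 libraries, with RLE scaling and without Scramble 3, where 0 genes were called higher (259, 249 and 311 genes had an unadjusted p below 0.05 in either direction). Cxcl9 was among the second 4: in migratory cells it stood at 112 and 67.5 CPM in JAG2KO, against 252 and 142 CPM in Scramble (difference 3.51 ± 0.52, adjusted p = 0.00092), and against cDC2 the difference was not called (1.88 ± 0.85, adjusted p = 0.92). Snx22 was at 0 in the cDC2 of these 4 libraries, so no difference was read there, and against migratory cells its difference was -1.78 ± 1.78 (adjusted p = 0.97).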

How the data were processed

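Droplet-based single-cell libraries (10x Genomics 3' v2 chemistry, per the labels) of sorted CD45-positive cells were analysed. The deposited files give whole-number UMI counts, not normalized, for 32285 genes. Cellranger 6.0.0 produced the counts, per the file headers, and the submitters' processing notes name Seurat and GRCm38 (mm10). Empty barcodes had been taken out by the authors, per the labels. Members and lists were chosen with earlier results of these data known.

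cDC1 were chosen by the rule given above, without doublet removal. UMIs were summed per library and compared with edgeR 4.0.16 (TMM scaling, filterByExpr, quasi-likelihood test, Benjamini-Hochberg adjustment, threshold 0.05), and every adjusted p is from it unless DESeq2 1.42.0 is named. The rule's genes were left out of testing. Standard errors are the log2 change over the root of F. Shares were compared by two-sided exact permutation over the 5 libraries. The fit was tested on simulated data. Other cell types were set by marker UMIs: cDC2 by at least 2 of Cd209a, migratory cells by at least 2 of Fscn1 and 1 of Ccr7. The cDC2 and migratory cells had at most 3 C1q UMIs in every setting. Scripts used Python 3.11.15 and R 4.3.3.

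Named genes are those called with at least 20 CPM and groups that do not overlap, up to 12 each way, leaving out receptor segments, haemoglobins, mitochondrial, ribosomal and sex-linked genes and unnamed models, else the 5 smallest p-values, up to 4 of each list, the 5 smallest interaction p-values each way, and a set of cDC1, Notch and presentation genes in any case. Dut, Mgl2, Ly6d, Ms4a4b, Plac8, Notch4, Dll1, the leading genes by fold, and the cells behind single genes, were chosen after their values were seen. Alternatives were other member rules and cell filters, doublet scores (Scrublet method), DESeq2, other scaling and filters, thinning, free-RNA genes left out, a replicate block and each library left out. JAG2KO 1 and 2 and Scramble 1 to 3 are the labels' replicates.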

Additional observations from a re-analysis of the deposited data

Results flagged for a closer look

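These genes were flagged because their change between JAG2KO and Scramble differed between cDC1 and another dendritic cell type by the edgeR interaction test, over the 4 libraries with at least 20 cells of each type. Against cDC2 the difference of log2 changes was -4.25 for Ccl17 (adjusted p = 0.0038), -3.96 for Ccl22 (adjusted p = 0.033), -1.11 for Cst3 (adjusted p = 0.0038) and 1.45 for S100a4 (adjusted p = 0.038). The S100a4 call was lost with all 5 libraries, with RLE scaling and without Scramble 3. Ccl17 stood at 98.1 and 168 CPM in JAG2KO cDC1, against 1108 and 56.6 CPM in Scramble cDC1, and at 1048 and 2059 CPM in JAG2KO cDC2, against 391 and 126 CPM in Scramble cDC2. In cDC1 of Scramble 1 one cell held 109 of 243 Ccl17 UMIs and 44 of 84 Ccl22 UMIs. The cysteine protease inhibitor Cst3 stood at 22810 and 29110 CPM in JAG2KO cDC1, against 28550 and 25020 CPM in Scramble cDC1, and at 7459 and 12650 CPM in JAG2KO cDC2, against 6089 and 4132 CPM in Scramble cDC2.

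Against migratory dendritic cells the difference was -8.17 for S100a8, -8.08 for S100a9, 3.51 for Cxcl9 and 4.30 for Ly6a (edgeR adjusted p = 8.8e-06, 5.1e-05, 0.00092 and 0.0020). The highest cDC1 held 20 of 51 Cxcl9 UMIs in JAG2KO 1 and 109 of 154 in JAG2KO 2. For Ly6a it held 32 of 60 UMIs in JAG2KO 1 and 17 of 34 in JAG2KO 2, against 33 of 38 in Scramble 1 and 10 of 24 in Scramble 3. S100a8 stood at 4.46 and 5.78 CPM in JAG2KO cDC1, against 803 and 36.8 CPM in Scramble cDC1, and at 15.6 and 797 CPM in JAG2KO migratory cells, against 126 and 67.7 CPM in Scramble migratory cells. S100a8 and S100a9 are neutrophil genes, and 1 cell of Scramble 1 held 172 UMIs of S100a8 and 287 of S100a9; neither gene passed the filter in the fit of cDC1 alone.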

How the results depend on the processing

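Alternatives concern counts and shares at low cell numbers. The ratio of cDC1 shares (0.893) was 5.24 with no C1q UMI allowed and 0.628 with cells thinned to 2000 UMIs, and ran from 0.716 to 1.11 with each library left out. That thinning left out kept cells under 2000 UMIs, 1065 and 8693 in the JAG2KO libraries, against 1241, 1495 and 1139 in the Scramble libraries. The ratio per 100 dendritic cells (0.516) was 0.385 with a UMI of both genes, 2.68 with no C1q UMI in cDC1 and 0.769 without migratory cells. It ran from 0.425 to 0.608 with each library left out. The ratio of cell cycle shares (2.04) was 1.24 when thinned to 2000 UMIs and 1.42 with up to 10 C1q UMIs, and 1.74 to 2.27 with each library left out. The number of called genes (6) was 2 with at least 3 UMIs of Xcr1 and Clec9a, 3 with a UMI of both, 3 by DESeq2, 63 with no filter on low counts, 0 with sums thinned to the smallest library (166 with an unadjusted p below 0.05), 10 with the highest cell of each gene left out and 0 to 48 with each library left out. It was 14 without JAG2KO 1, 48 without JAG2KO 2, 0 without Scramble 1, 3 without Scramble 2 and 1 without Scramble 3. With the replicate block 31 genes were called, 18 up and 13 down, and all 6 were among them, but same-numbered libraries share only a number (correlations of deviations 0.0325 and 0.0379). The genes differing from cDC2 (4) were 17 with no filter, 32 with at least 3 UMIs, 2 with all 5 libraries and 4 to 41 with each library left out (41 without JAG2KO 1, 34 without JAG2KO 2, 34 without Scramble 1). Those differing from migratory cells (4) were 10, 8 and 7 to 18 with no filter, with at least 3 UMIs and with each library left out (8 without JAG2KO 1, 18 without JAG2KO 2, 7 without Scramble 1, 10 without Scramble 3). The value of Cxcl9 with a UMI of both genes was -0.44. The causes were not tested. Of the other values of single genes, 1584 kept direction and side of the threshold, 46 lost a call, 48 gained one and 53 moved. The gene fit with no C1q UMI was not run, since Scramble 3 then had no cDC1.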
